A study of Mus musculus with 8 samples.

Results

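Type I interferon antiviral genes were followed as a group of 53 mouse genes in regulatory T cells (Tregs), CD4 T cells that carry the transcription factor Foxp3 and hold immune responses in check. The genes were chosen by name, as known interferon-induced antiviral effectors and their close relatives, and each symbol was looked up in the count table. The choice was made with earlier results of these data known. All 53 were found among its 38406 gene symbols, and all 53 passed the filter on low counts that left 14772 genes for testing. RNA was sequenced from Tregs sorted out of muscle and spleen of male C57BL/6 mice, 4 days after the muscles were injured with cardiotoxin, a venom peptide that kills muscle fibres, at 0.9 µg per muscle. The 4 groups were young spleen and young muscle from mice aged 2 months, and aged spleen and aged muscle from mice aged over 6 months, with 2 libraries each. Every group, the spleens included, came from injured mice, and no uninjured animal is among them. The aged mice are described only as older than 6 months, so their exact ages are unknown here. Each library was made from 1500 Tregs, and the RNA was amplified first by in vitro transcription and then by PCR, so a count is a number of reads and not of molecules. The design text calls the libraries biological duplicates without saying if each was a separate animal or a pool, so the p-values measure the spread among these libraries only.

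Type I interferons (the interferon alpha family and interferon beta) bind a receptor of the chains IFNAR1 and IFNAR2, whose Janus kinases JAK1 and TYK2 phosphorylate STAT proteins such as STAT2. STAT2 joins IRF9 in a complex that binds the interferon-stimulated response element in promoters and switches on antiviral genes. Their products sense viral nucleic acid, degrade RNA, stall translation and block virus entry, replication and release, and T cells exposed to interferon switch them on as other cells do.

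Members were first placed on the genome, because the response element is a property of the sequence before a gene. RefSeq promoter windows on GRCm38.p6, of 250 bases before and 50 bases after a start site, were at hand for 41 of the 53 members. The letters GAAANNGAA, the core of the response element, were searched on both strands, with overlapping matches counted. They occurred in 22 of the 41 members (53.7%, exact 95% interval 37.4 to 69.3) and in 9.76% of all 27025 genes with such windows. At least 2 matches were held by 13 members, against 0.736% of all genes. Ifit1, Ifit3 and Isg15 held 3 each. With 1 further A required after the letters, 18 of 41 members (43.9%) and 3.99% of all genes had a match. Among members with a window, 10 of 17 that rose with age in muscle and 12 of 24 that did not pass that test held GAAANNGAA. A match is a stretch of letters and not a measured binding site.

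The windows of 5 members are printed because these genes had the smallest p with or without a GAAANNGAA match in 1 of the comparisons below. Matches are in capitals, positions count from the start site, and the sequences run 5′ to 3′ on the strand of the gene. Ifit1 (chr19:34640639-34640938, plus strand) held 3 matches in reverse complement, at -109 to -101, at -103 to -95, which overlaps the first, and at -84 to -76. Ifi203 (chr1:173942443-173942742, minus strand) held 1 match, at -35 to -27, before 1 of its 2 start sites in the table. No match lay in the windows of Lgals3bp (chr11:118401910-118402209, minus strand), Cmpk2 (chr12:26468965-26469264, plus strand) or Epsti1 (chr14:77903989-77904288, plus strand).
Ifit1: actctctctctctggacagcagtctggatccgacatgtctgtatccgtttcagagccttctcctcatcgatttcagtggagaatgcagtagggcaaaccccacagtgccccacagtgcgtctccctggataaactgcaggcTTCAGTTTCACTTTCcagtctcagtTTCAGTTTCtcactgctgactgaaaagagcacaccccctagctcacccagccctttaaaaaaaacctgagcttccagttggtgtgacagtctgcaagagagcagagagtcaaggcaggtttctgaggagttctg
Ifi203: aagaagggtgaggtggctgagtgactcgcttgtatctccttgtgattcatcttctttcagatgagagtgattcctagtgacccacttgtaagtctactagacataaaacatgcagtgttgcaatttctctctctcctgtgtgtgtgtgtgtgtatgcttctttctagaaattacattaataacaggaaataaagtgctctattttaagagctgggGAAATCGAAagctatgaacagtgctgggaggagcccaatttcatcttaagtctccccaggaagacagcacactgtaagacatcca
Lgals3bp: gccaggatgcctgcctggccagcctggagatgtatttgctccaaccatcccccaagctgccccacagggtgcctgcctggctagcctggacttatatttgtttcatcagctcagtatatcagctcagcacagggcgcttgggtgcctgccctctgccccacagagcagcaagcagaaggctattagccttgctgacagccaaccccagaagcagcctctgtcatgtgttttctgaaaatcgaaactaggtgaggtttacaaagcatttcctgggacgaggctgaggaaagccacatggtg
Cmpk2: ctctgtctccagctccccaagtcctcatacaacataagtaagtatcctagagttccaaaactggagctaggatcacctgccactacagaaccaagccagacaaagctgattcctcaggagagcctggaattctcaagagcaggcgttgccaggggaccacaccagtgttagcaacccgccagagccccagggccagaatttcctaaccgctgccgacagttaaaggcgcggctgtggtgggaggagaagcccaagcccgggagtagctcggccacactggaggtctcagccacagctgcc
Epsti1: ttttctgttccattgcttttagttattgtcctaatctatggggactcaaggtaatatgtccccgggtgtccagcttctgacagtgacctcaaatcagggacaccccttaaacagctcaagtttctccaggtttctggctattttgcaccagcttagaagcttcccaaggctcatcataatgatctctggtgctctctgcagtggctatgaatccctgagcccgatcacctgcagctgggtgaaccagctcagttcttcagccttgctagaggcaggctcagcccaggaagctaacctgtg

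Several members are neighbours on a chromosome. Within 500 kb of another member lay 19 of the 53, in 7 groups. The Schlafen genes Slfn5, Slfn8, Slfn2 and Slfn1 stand together on chromosome 11, and Ifit2, Ifit3 and Ifit1 on chromosome 19. Oas2, Oas3 and Oas1a form a group on chromosome 5, with Oasl2 and Oasl1 in another. Rsad2 and Cmpk2 are neighbours on chromosome 12, Parp14, Dtx3l and Parp9 on chromosome 16, and Ifi204 and Ifi203 on chromosome 1. An exon of another annotated gene overlapped the span of 18 members, and for 6 of them (Adar, Dtx3l, Parp9, Ifi203, Rtp4 and Uba7) that gene was protein-coding. Counts of these 18, and of members with near-identical relatives such as Oas1a, Ifit3, Slfn8, Trim30a, Ifi203 and Ifi204, are uncertain to the extent that reads were shared.

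Libraries held 1969982 to 4008622 counts, and the limit that a reading of 0 allows, 3 counts, came to 0.736 to 1.5 CPM in a library. CPM are counts scaled to 1000000 counts in all. The 8 Treg markers looked up (among them Foxp3, Il2ra and Ctla4) were above 0 in every library and summed to 3249 to 5219 CPM. Young muscle replicate 1 stood apart by its macrophage genes and by its fibroblast and endothelial markers. Lyz2, which encodes lysozyme, was at 116 and 12 CPM in the 2 young muscle libraries, 0.372 and 1.69 in aged muscle and 1.16 to 9.35 in spleen, and the complement gene C1qa was at 111 CPM in that library and at 0 in young muscle replicate 2 and aged muscle replicate 1. The 17 myeloid markers found, of 18 looked up, summed to 1395 and 842 CPM in young muscle, 837 and 716 in aged muscle and 110 to 550 in spleen, with Ccr2 and Cd74, which some Tregs also express, holding much of the sum in most libraries. In aged muscle replicate 1, 7 of the 17 were at 0 (Fcer1g, C1qa, C1qb, C1qc, S100a8, S100a9 and Fcgr3). Of the 14 myeloid markers tested, 12 had a log2 fold change with age in muscle below 0, with a median of -2.56. Fcer1g (-5.75 ± 1.14, adjusted p = 0.016) and Tyrobp (-4.86 ± 0.96, adjusted p = 0.021) fell and Cd74 rose (2.14 ± 0.24, adjusted p = 0.00022). The 8 fibroblast and endothelial markers summed to 553 and 234 CPM in young muscle, 179 and 211 in aged muscle and 155 to 354 in spleen. Of the 5 tested, 5 had a log2 fold change with age in muscle below 0, with a median of -2.01, and 0 were called. Of the markers of plasmacytoid dendritic cells, the classic source of type I interferon, Siglech was at 2.32 to 10.1 CPM and Klk1 at 0 in every library. Their sum without the antiviral gene Bst2 was 313 and 321 CPM in young and 299 and 392 in aged muscle, and within it Ccr9 rose with age (1.88 ± 0.44, adjusted p = 0.041). The part of other cells in the values below was not tested, and in bulk RNA fewer cells of a type and less RNA per cell cannot be told apart.

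The first comparison asked how Tregs of injured muscle differ between aged and young mice. The antiviral genes, a list chosen with earlier results of these data known, were higher in aged muscle as a group. Of the 53, 22 rose and 0 fell at an adjusted p under 0.05, where 1.14% of all genes tested rose and 0.88% fell. At an unadjusted p under 0.05, 39 members were higher and 1 lower, against 7.60% and 7.69% of all genes. DESeq2 called 23 higher and 0 lower, against 1.49% and 1.63% of all genes. The median log2 fold change of the members was 1.04, against 0.03 for all genes tested. Above 0 were 49 of 53 members, against 7692 of all 14772 genes. Both aged muscle libraries exceeded both young ones for 43 of 53 members, against 21.2% of all genes, and lay under them for 2, Ifitm3 and Ly6e, against 20.3%.

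Together the 53 genes took 0.492% and 0.521% of all counts in the 2 young muscle libraries and 0.866% and 0.744% in aged muscle, with 0.486% to 0.543% in spleen. By these shares the aged muscle libraries stood above the other 6, which overlapped. Ly6e and Ifi27l2a, the members with the most counts, weigh most in the shares. The members' median log2 CPM was 4.77 and 4.51 in young muscle, 6.07 and 5.77 in aged muscle and 5.36 to 5.56 in spleen. Within aged muscle, replicate 1 had the higher value for 36 of 53 members. Ordered by mean log2 CPM of a group, 32 members (60.4%) were highest in aged muscle, against 30.2% of all genes tested, and 36 (67.9%) were lowest in young muscle, against 22.4% of all genes. Aged muscle was the lowest group for 0 of the 53. Young muscle was the highest group for 2 members, Ifitm3 and Ly6e.

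**Figure D1:**
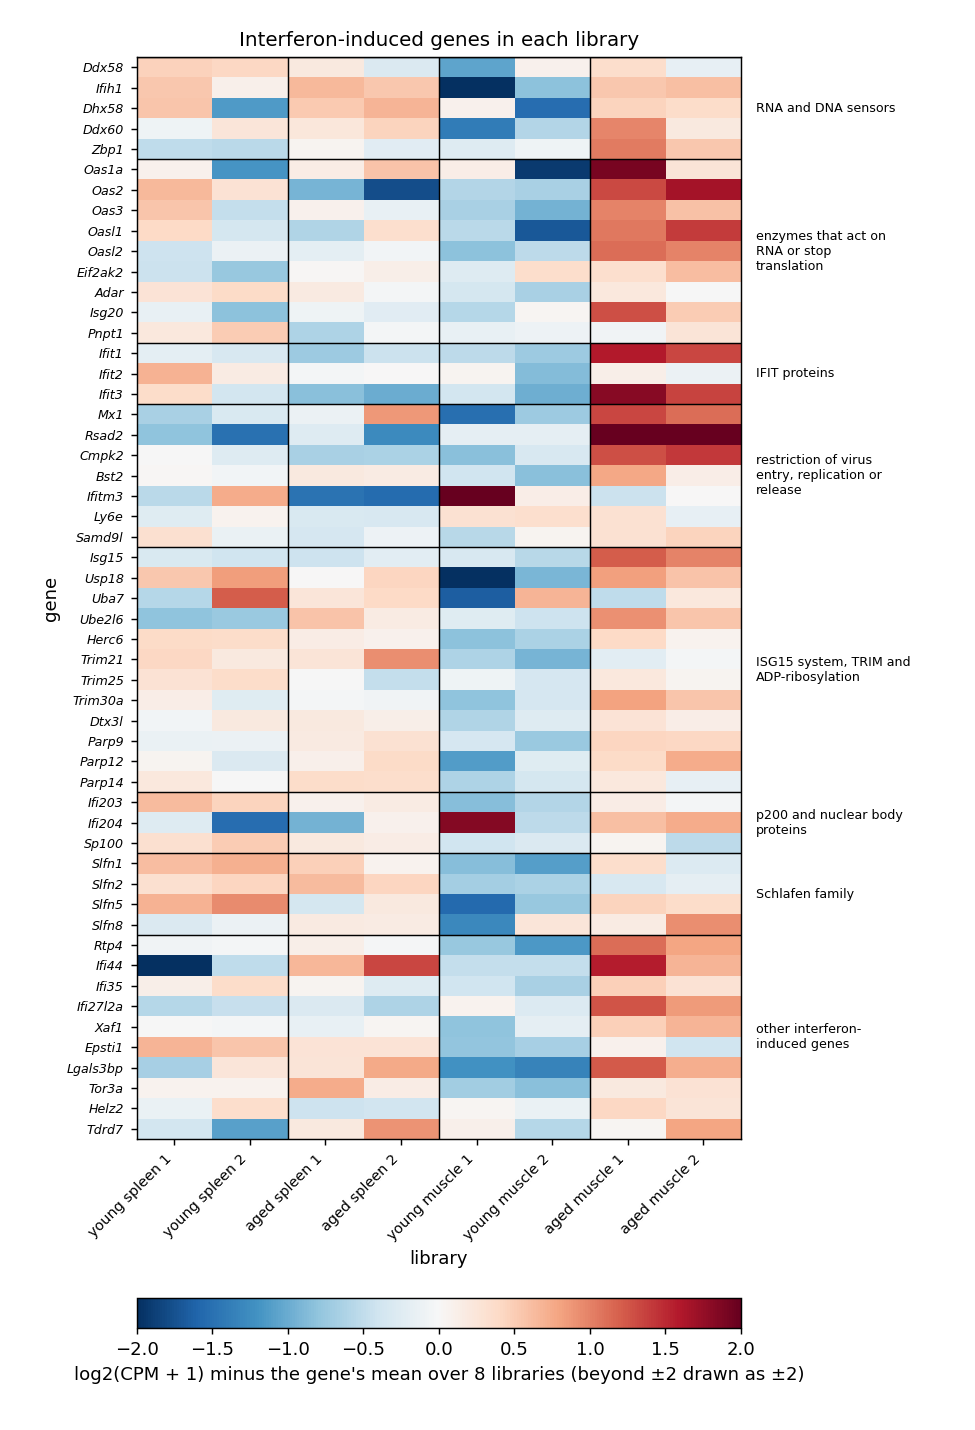
Level of each of the 53 genes (vertical, grouped by role) in each of the 8 libraries (horizontal), as log2(CPM + 1) minus the gene's mean over the libraries. The 2 aged muscle columns are mostly red and the 2 young muscle columns mostly blue, with Ifitm3 and Ifi204 dark red in young muscle replicate 1.

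The cytosolic sensors detect foreign nucleic acid and start the interferon response. Of 5 such genes, 3 rose with age in muscle: Ifih1, Ddx60 and Zbp1. Ifih1 encodes MDA5, the sensor of long double-stranded RNA (chromosome 2, 62595798 to 62646255). It stood at 2.82 and 8.49 CPM in young and 23.5 and 24.5 in aged muscle, with 23.4 and 17 in young and 25.3 and 23.4 in aged spleen. The young muscle libraries were the lowest of all, and the aged muscle ones lay at the level of spleen. Its log2 fold change with age was 2.11 ± 0.49 (SE; adjusted p = 0.04). Zbp1, a sensor of Z-form nucleic acid that can trigger cell death, was at 63.6 and 71.4 CPM in young and 157 and 111 in aged muscle, with 53.3 and 52.3 in young and 79.2 and 64.8 in aged spleen. Here aged muscle was above every other library, by 0.99 ± 0.22 over young muscle on the log2 scale (adjusted p = 0.029). Ddx60, a helicase that assists RNA sensing, measured 8.45 and 15.5 CPM in young and 47.7 and 27.5 in aged muscle, against 22.4 to 32.9 in spleen, and rose by 1.67 ± 0.40 (adjusted p = 0.044). Aged muscle replicate 2 lay within the spleen range. Dhx58, which encodes LGP2, a regulator of the other sensors, was at 26.6 and 7.99 and 34.3 and 32.6 CPM in young and aged muscle (log2 fold change 0.93, adjusted p = 0.49). Ddx58, which encodes RIG-I, the sensor of 5′-triphosphate RNA, was at 19.3 and 43.5 and 52.9 and 36.4 CPM (0.52, adjusted p = 0.51). The young muscle libraries differed widely in both genes.

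The 2′-5′ oligoadenylate synthetases make the messenger that activates RNase L, and with them were listed other enzymes that edit or degrade RNA or stop translation. Of these 9 genes, 3 rose, and 9 of 9 had a log2 fold change above 0. Oas2 (chromosome 5, 120730333 to 120749853) was at 10.5 and 9.99 CPM in young and 42.1 and 53.7 in aged muscle, with 26.2 and 20.1 in young and 8.09 and 4.07 in aged spleen. Its aged muscle libraries were the highest of the 8 and its aged spleen libraries the lowest. It rose with age in muscle by 2.22 ± 0.41 (adjusted p = 0.0082). Oasl2, an oligoadenylate synthetase-like gene, was at 9.66 and 12 CPM in young muscle, 39.9 and 36.4 in aged muscle and 13.1 to 17 in spleen. It rose by 1.82 ± 0.38 (adjusted p = 0.021), and aged muscle stood clear of the other 6 libraries. Oas3, a further synthetase gene, was at 19.7 and 16 and 63.7 and 48.2 CPM in young and aged muscle and at 22.5 to 46.7 in spleen. It rose by 1.64 ± 0.36 with age in muscle (adjusted p = 0.027). Oasl1, which restrains translation of Irf7, was at 5.63 and 2 and 19 and 24.5 CPM. Its log2 fold change of 2.47 ± 0.66 was larger than that of Oas2 and did not pass (adjusted p = 0.072). Log2 fold changes of the rest were 2.05 for Oas1a, 1.22 for the exonuclease gene Isg20, 0.60 for the RNA editing enzyme gene Adar, 0.41 for Eif2ak2, which encodes the kinase PKR, and 0.23 for Pnpt1, with adjusted p from 0.085 to 0.74.

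IFIT proteins bind viral RNA and translation factors. Ifit1, whose promoter window with 3 matches is printed above, was at 22.1 and 19 CPM in young and 98.7 and 82.9 in aged muscle, with 28 and 25.6 in young and 19.1 and 23.7 in aged spleen. Both aged muscle libraries stood far above the other 6, which lay close together. The rise was 2.14 ± 0.28 on the log2 scale, with the smallest p of the 53 in this comparison (adjusted p = 0.00055). Ifit3 was at 8.85 and 5.49 CPM in young and 44.3 and 31.7 in aged muscle, with 15.4 and 8.91 in young and 6.13 and 5.43 in aged spleen, again highest in aged muscle, and rose by 2.39 ± 0.48 (adjusted p = 0.017). Their neighbour Ifit2 did not pass. It was at 22.5 and 11.5 CPM in young and 23.5 and 19.9 in aged muscle, with 35.5 and 24.4 in young and 21.1 and 21.7 in aged spleen, the muscle groups overlapped, and the log2 fold change was 0.34 ± 0.40 (adjusted p = 0.73). The difference between Ifit2 and its neighbours was not tested.

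Restriction factors act on virus entry, replication or release, and 3 of the 7 rose. Rsad2 encodes viperin, which makes a chain-terminating nucleotide from CTP, and Cmpk2, its neighbour on chromosome 12, encodes a nucleotide kinase that acts on CMP and UMP. Rsad2 was at 12.1 and 12 CPM in young and 64.1 and 59.2 in aged muscle, with 7.48 and 4.26 in young and 11.3 and 5.09 in aged spleen. Cmpk2 was at 8.45 and 12.5 CPM in young and 40.2 and 44 in aged muscle, with 15.9 and 13.2 in young and 9.81 and 9.84 in aged spleen. For both genes the 2 aged muscle libraries were far above the other 6. These ran from 4.26 to 12.1 CPM for Rsad2, with both young muscle libraries above every spleen library, and from 8.45 to 15.9 for Cmpk2. Rsad2 rose by 2.35 ± 0.42 (adjusted p = 0.007) and Cmpk2 by 2.01 ± 0.40 (adjusted p = 0.015). Bst2, which encodes tetherin, the protein that holds budding virus at the cell surface, was at 136 and 101 CPM in young and 309.9 and 198 in aged muscle, with 184 and 174 in young and 208 and 202 in aged spleen. Young muscle was lowest, and aged muscle replicate 2 lay within the range of spleen. The rise was 1.10 ± 0.21 (adjusted p = 0.013). Mx1, a gene of the dynamin-like GTPase family, was at 1.61 and 3.5 CPM in young and 17.9 and 15.2 in aged muscle. Its log2 fold change of 2.70 ± 0.72, the largest of all 53, did not pass (adjusted p = 0.072).

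The other 3 restriction factors did not pass. Ifitm3, which blocks fusion of virus with the endosome and is abundant in macrophages, was at 57.1 and 6.49 CPM in young and 4.1 and 5.92 in aged muscle, with 3.74 and 10.5 in young and 1.47 and 1.36 in aged spleen. A single library, young muscle replicate 1, held the high value, the library in which Lyz2 and C1qa were also high. The log2 fold change of -2.67 ± 0.86 did not pass (adjusted p = 0.15), and Ifitm3 was the 1 member lower at an unadjusted p under 0.05. Without that library it was -0.38. Ly6e, a membrane-anchored protein that inhibits coronavirus entry, was at 2186 and 2215 CPM in young and 2175 and 1576 in aged muscle (-0.23, adjusted p = 0.54). Samd9l, an inhibitor of translation, was at 38.2 and 59.4 and 70.4 and 78.2 CPM (0.61, adjusted p = 0.28), with both aged libraries above both young ones.

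ISG15 is a ubiquitin-like protein that is joined to other proteins, and TRIM and PARP proteins add ubiquitin or ADP-ribose. Of the 12 genes of this kind, 4 rose and 11 of 12 had both aged muscle libraries above both young ones. Isg15 itself was at 56.3 and 47.5 CPM in young and 164 and 140.4 in aged muscle, with 56.5 and 53.1 in young and 52.5 and 60.4 in aged spleen. The 6 libraries outside aged muscle held nearly the same level, and both aged muscle libraries stood far above it. It rose by 1.55 ± 0.21 (adjusted p = 0.00069). Usp18 removes ISG15 from proteins and also dampens signalling at the interferon receptor. It was at 3.62 and 11 CPM in young and 39.1 and 32.6 in aged muscle, with 31.8 and 39.5 in young and 21.8 and 29.5 in aged spleen. Young muscle was the low group here, and aged muscle overlapped young spleen. The rise was 2.33 ± 0.45 (adjusted p = 0.012). Trim30a, a negative regulator of NF-kappaB signalling, was at 66.8 and 93.4 CPM in young and 207 and 173 in aged muscle, with 129.9 and 99.96 in young and 115 and 112 in aged spleen, highest in aged and lowest in young muscle, with a rise of 1.25 ± 0.21 (adjusted p = 0.0042). Herc6, the ISG15 ligase of the mouse, was at 27.8 and 32 CPM in young and 66.3 and 52.4 in aged muscle, against 53.3 to 65.4 in spleen, and rose by 0.99 ± 0.24 (adjusted p = 0.048). The other enzymes of ISG15 transfer did not pass. Ube2l6, the conjugating enzyme, had a log2 fold change of 1.13 (adjusted p = 0.24), and Uba7, the activating enzyme, of -0.03, with 0.805 and 7.99 CPM in the young muscle libraries. Parp9 (0.96, adjusted p = 0.053), its partner Dtx3l (0.63), Parp14 (0.52), Parp12 (1.29), Trim21 (0.67) and Trim25 (0.35) did not pass either.

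The p200 proteins bind DNA in the nucleus, and Sp100 is a component of nuclear bodies. Ifi203 was at 102 and 123 CPM in young and 205 and 180.1 in aged muscle, with 289.8 and 253 in young and 197 and 209 in aged spleen. Young muscle was the low group, and aged muscle overlapped aged spleen. It rose by 0.77 ± 0.17 (adjusted p = 0.029). Sp100 was at 185 and 200.3 CPM in young and 253 and 170.4 in aged muscle, and the groups overlapped (0.14, adjusted p = 0.76). Ifi204 was sparse, at 23 and 2 counts in young muscle and 9 in each aged muscle library, and its high value again lay in young muscle replicate 1 (-0.53, adjusted p = 0.88).

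Schlafen genes are known as regulators of T cell growth and quiescence. Slfn1 was at 37.8 and 31.5 CPM in young and 88.6 and 56.7 in aged muscle, with 106 and 113 in young and 96.8 and 72.6 in aged spleen. Young muscle was lowest and young spleen highest. It rose by 1.07 ± 0.26 with age in muscle (adjusted p = 0.045). Slfn5 was at 3.62 and 6.99 CPM in young and 17.5 and 16.5 in aged muscle, Slfn2, which keeps T cells quiescent, at 85.3 and 88.4 and 110.2 and 121, and Slfn8 at 30.2 and 89.9 and 84.5 and 145. Their log2 fold changes of 1.69, 0.41 and 0.95 did not pass (adjusted p = 0.12, 0.26 and 0.37).

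Of 10 other interferon-induced genes, 5 rose. Rtp4, a chaperone of cell surface receptors, was at 27.8 and 21 CPM in young and 105 and 83.3 in aged muscle, with 45.3 and 46.5 in young and 52 and 47.2 in aged spleen. The groups were in clear order, with young muscle lowest, both spleen groups between and aged muscle highest. It rose by 1.94 ± 0.25 (adjusted p = 0.00055). Lgals3bp, a secreted galectin-binding glycoprotein whose promoter window held no match, was at 24.1 and 22 CPM in young and 135 and 95.6 in aged muscle, with 35.5 and 67.4 in young and 68.6 and 97.7 in aged spleen. Its spleen libraries were spread widely and reached into the range of aged muscle, and the young muscle libraries were the lowest. It rose by 2.32 ± 0.32 (adjusted p = 0.0014). Ifi27l2a, a small hydrophobic protein, was at 882 and 696 CPM in young and 2009.7 and 1520.2 in aged muscle, with 563 and 610.2 in young and 688 and 547 in aged spleen. Both aged muscle libraries were far above the other 6, and the rise was 1.16 ± 0.18 (adjusted p = 0.0024). Ifi35, an interferon-induced leucine zipper protein, was at 62.4 and 52 CPM in young and 115 and 101 in aged muscle (0.91 ± 0.21, adjusted p = 0.038), and Xaf1, which promotes apoptosis, at 30.2 and 47.5 and 74.9 and 86.3 (1.06 ± 0.25, adjusted p = 0.045). Tor3a (1.04), Epsti1 (0.60), Ifi44 (1.89), Helz2 (0.39) and Tdrd7 (0.71) did not pass, with adjusted p from 0.12 to 0.61.

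**Figure D2:**
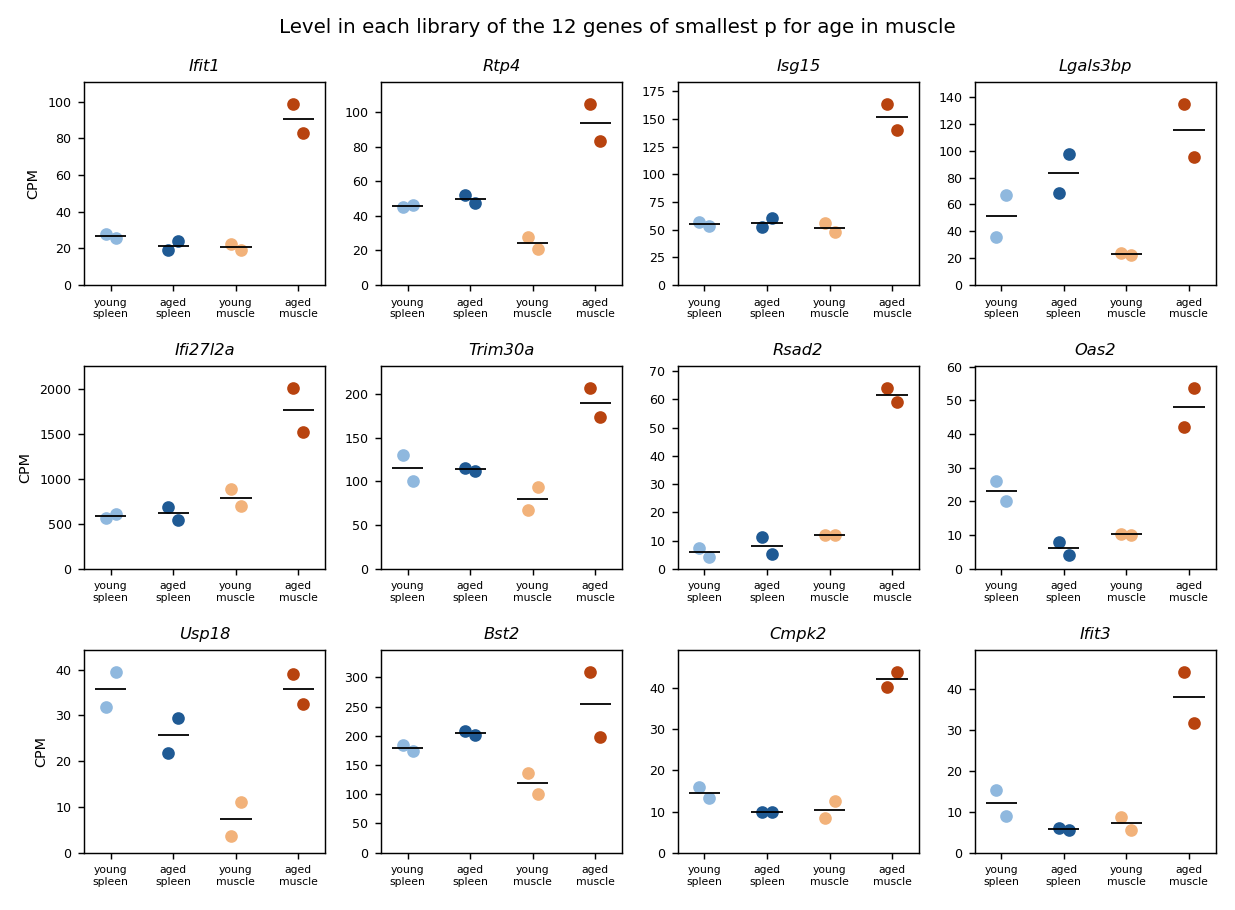
CPM (vertical, from 0) of the 12 genes with the smallest p for age in muscle, by group (horizontal); each point is 1 library and each line the mean of 2. Aged muscle has the highest mean for all 12, by little over young spleen for Usp18, and young muscle lies below the other groups without overlap for Rtp4, Lgals3bp, Usp18, Trim30a and Bst2.

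How firmly these rises stand differed between genes. Ifit1, Isg15, Lgals3bp, Rsad2 and Rtp4 kept their calls under all 13 alternatives run, and no log2 fold change of the 22 genes changed sign, with values from 0.64 to 3.29. Only those 5 passed when the 4 muscle libraries were fitted alone. Leaving out young muscle replicate 1 left 10 calls, ending those of Cmpk2, Ddx60, Herc6, Ifi203, Ifi35, Ifih1, Oas3, Oasl2, Slfn1, Usp18, Xaf1 and Zbp1. Leaving out aged muscle replicate 1 left 9, ending those of Bst2, Ifit3 and the same genes except Cmpk2. Without any 1 of the 4 spleen libraries, which give only the spread, 12 to 14 remained. Ddx60, Herc6, Ifi203, Ifi35, Ifih1, Slfn1, Xaf1 and Zbp1 lost theirs each time, and Oas3 and Oasl2 without either aged spleen library. Without aged muscle replicate 2, the calls of Cmpk2, Herc6, Ifi35, Ifih1, Oas2, Oasl2 and Xaf1 ended. Without young muscle replicate 2, those of Ifi35 and Slfn1 ended. Calls over all genes moved between these fits as well, so their counts of members are not set against each other. The log2 fold changes of Ifih1 and Usp18 moved most, to 1.49 and 1.70 without young muscle replicate 1 and to 3.07 and 3.29 without replicate 2. Herc6 also lost its call by DESeq2.

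The same contrast in spleen asked the same of Tregs of the spleen. The 53 genes did not move together there: 0 rose and 1 fell, where 2.08% of all genes rose and 2.17% fell. DESeq2 gave the same counts of 0 and 1, against 2.53% and 2.86% of all genes. At an unadjusted p under 0.05, 5 members were higher and 7 lower, against 9.12% and 7.53% of all genes. With library-size scaling these became 8 and 3. The median log2 fold change was 0.04, against 0.05 for all genes. Above 0 were 27 members and below it 26, against 7851 and 6892 of all 14772 genes. Both aged libraries exceeded both young ones for 16 members, against 28.8% of all genes, and lay under them for 20, against 24.0%. The gene that fell was Oas2, from 26.2 and 20.1 CPM in young to 8.09 and 4.07 in aged spleen, by -1.89 ± 0.42 on the log2 scale (adjusted p = 0.017). That call ended without any 1 of the 4 spleen libraries, where the log2 fold change lay between -2.49 and -1.51. Ifi44, which was at 0 and 3.87 CPM in young and 10.1 and 16.6 in aged spleen, had the largest value in the other direction, 2.68 ± 0.90 (adjusted p = 0.12). Ifit1, Isg15, Rsad2, Rtp4 and Lgals3bp had log2 fold changes of -0.33, 0.04, 0.52, 0.11 and 0.68 in spleen (adjusted p from 0.26 to 0.96).

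**Figure D3:**
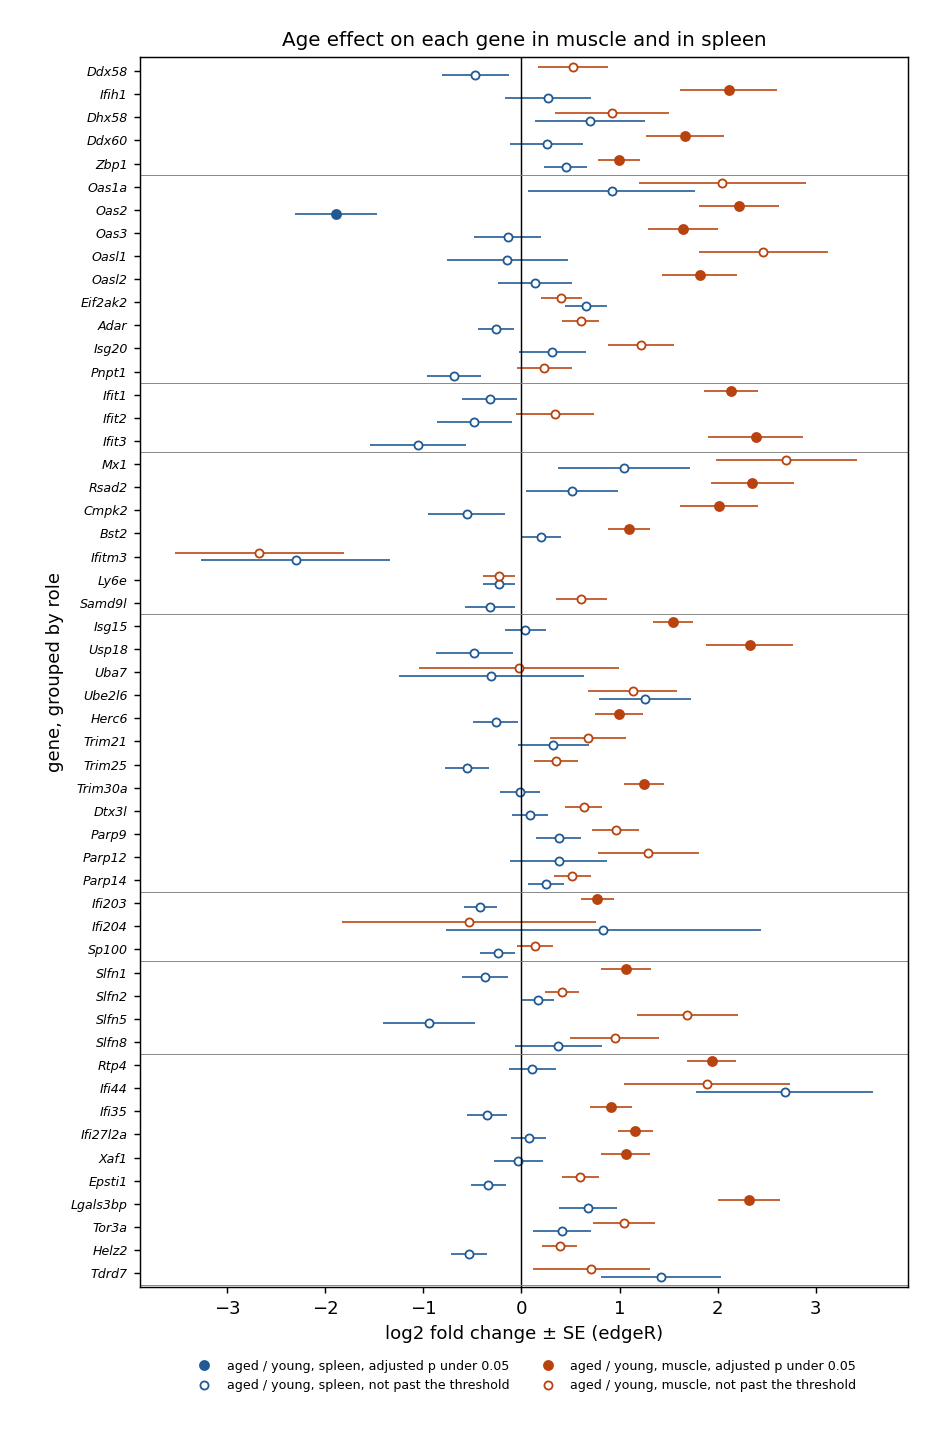
Log2 fold change ± SE (horizontal) of aged over young in muscle (orange) and in spleen (blue) for each of the 53 genes (vertical, grouped by role); filled points have an edgeR adjusted p under 0.05. The 22 filled muscle points all lie above 0, and the 1 filled spleen point, Oas2, lies below 0 at -1.89.

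Whether age acted differently in the 2 tissues was tested as a difference of the age effects, muscle minus spleen. It was above 0 for 12 of the 53 genes and below 0 for 0 at an adjusted p under 0.05, where 1.35% and 1.17% of all genes were called. DESeq2 called 15 and 0, against 1.72% and 1.52% of all genes. An unadjusted p under 0.05 was reached by 29 and 0, against 5.90% and 7.10% of all genes. The members' median was 0.93, against -0.04 for all genes. The difference was largest for Oas2, at 4.11 ± 0.58 (adjusted p = 0.00099), since this gene rose in muscle and fell in spleen. Ifit3 followed with 3.44 ± 0.68 (adjusted p = 0.012), Usp18 with 2.81 ± 0.59 (0.018), Cmpk2 with 2.57 ± 0.56 (0.021) and Ifit1 with 2.46 ± 0.39 (0.0024). Rtp4 (1.83), Isg15 (1.51), Slfn1 (1.43), Trim30a (1.27), Ifi35 (1.26), Ifi203 (1.19) and Ifi27l2a (1.09) made up the rest. Of the 5 sensor genes 0 passed, with 5 of 5 above 0, a median of 0.99 and 2 at an unadjusted p under 0.05. For Rsad2, Lgals3bp, Bst2 and Zbp1, which rose in muscle, the difference was 1.83, 1.64, 0.90 and 0.54 and did not pass (adjusted p = 0.18, 0.067, 0.15 and 0.51). Ifit1 and Oas2 kept their calls under all 12 alternatives. Without 1 spleen library, 2 to 5 members passed, and the other 10 calls ended in each of those 4 fits, except those of Ifi203 and Ifit3, which held without young spleen replicate 2. Without aged muscle replicate 1, 6 members passed, and Cmpk2, Ifi35, Ifit3, Slfn1, Trim30a and Usp18 did not. The calls also ended for Cmpk2 without aged muscle replicate 2, for Trim30a without young muscle replicate 1 and for Ifi27l2a, Ifi35 and Slfn1 without young muscle replicate 2.

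Muscle and spleen Tregs were then compared within each age. These comparisons share the young and the aged libraries with the age comparisons, so their values are other readings of the same 8 libraries and not further evidence. In young mice the antiviral genes were lower in muscle: 15 of 53 were lower and 1 was higher, where 10.9% of all genes were lower and 11.4% higher. At an unadjusted p under 0.05, 24 were lower and 5 higher, against 17% and 19.4% of all genes. DESeq2 called 14 lower and 3 higher, against 8.9% and 12.9% of all genes. The median was -0.57, against 0.07 for all genes, and both muscle libraries lay under both spleen libraries for 34 members, against 30.0% of all genes.

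The 15 included 3 of 4 Schlafen genes, 2 of 3 p200 and nuclear body genes and 4 of 12 genes of the ISG15, TRIM and PARP group. Of the IFIT genes 0 of 3 passed, but both muscle libraries lay under both spleen libraries for 3 of 3, with a median of -0.74. Differences between the roles were not tested. Epsti1, an interferon-induced gene named for its discovery in epithelial-stromal cultures, was at 248 and 227 CPM in young spleen and 88.9 and 97.4 in young muscle, -1.35 ± 0.19 on the log2 scale (adjusted p = 0.00013), with no overlap. Ifi203 differed by -1.27 ± 0.17 (9.2e-05), Slfn1 by -1.66 ± 0.25 (3e-04) and Slfn2, at 172 and 186 CPM in spleen and 85.3 and 88.4 in muscle, by -1.04 ± 0.17 (0.00054). Among the called genes Usp18 had the largest difference, -2.32 ± 0.45 (0.0019), followed by Slfn5 with -2.13 ± 0.51 and Ifih1 with -1.86 ± 0.50. Lgals3bp (-1.16), Herc6 (-1.13), Trim21 (-1.12), Rtp4 (-0.91), Adar (-0.82), Ifi35 (-0.78), Sp100 (-0.76) and Parp14 (-0.59) were also lower. Eif2ak2, the gene of the kinase PKR, was the 1 higher in muscle, at 97.2 and 77.1 CPM in young spleen and 109 and 167 in young muscle (0.66 ± 0.22, adjusted p = 0.041). Epsti1, Herc6, Ifi203, Slfn1, Slfn2 and Usp18 kept their calls under all 13 alternatives. Leaving out young spleen replicate 2 left 8 lower and ended the calls of Adar, Ifi35, Lgals3bp, Parp14, Rtp4, Slfn5, Sp100 and Trim21. Trim21 passed in none of the fits that left out 1 library, nor by DESeq2, without the filter or with library-size scaling, which also ended the call of Parp14, and the calls of Ifih1, Rtp4 and Trim21 ended with the young libraries fitted alone. Other calls that ended were those of Ifih1 without young spleen replicate 1 or young muscle replicate 1, of Rtp4 without young spleen replicate 1 or young muscle replicate 2, of Ifi35 and Lgals3bp without young muscle replicate 2, and of Parp14 without young spleen replicate 1, young muscle replicate 1 or either aged spleen library. The call of Eif2ak2 ended without either young spleen library, either aged spleen library or young muscle replicate 2, or with the young libraries fitted alone.

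In aged mice the log2 fold change was above 0 for 41 members and below 0 for 12, against 7576 and 7195 of 14772 genes. In young mice it was above 0 for 11 members and below 0 for 42, against 7778 and 6984 of 14772 genes. Of the 53, 13 were higher and 1 was lower in muscle than in spleen, where 9.57% of all genes were higher and 9.27% lower. DESeq2 called 14 and 1, against 11.1% and 7.37% of all genes. An unadjusted p under 0.05 was reached by 19 and 2, against 18% and 16.5% of all genes. The median was 0.42, against 0.03 for all genes. Ifi27l2a was higher by 1.52 ± 0.18 (adjusted p = 4.6e-05), Ifit1 by 2.09 ± 0.27 (9.8e-05) and Isg15 by 1.43 ± 0.20 (0.00021). Oas2, Rsad2 and Ifit3 had the largest differences, 2.94 ± 0.41, 2.88 ± 0.43 and 2.70 ± 0.48, followed by Cmpk2 with 2.09 ± 0.39. Oasl2 (1.23), Isg20 (1.13), Rtp4 (0.92), Zbp1 (0.90), the helicase gene Helz2 (0.75) and Trim30a (0.74) were higher as well. Slfn2 was lower, at 215 and 186 CPM in aged spleen and 110.2 and 121 in aged muscle (-0.79 ± 0.17, adjusted p = 0.0045). It was thus lower in muscle at both ages. Rtp4 alone was called lower in muscle than in spleen in young mice and higher in aged mice. Apart from Slfn2, the other called members were called at 1 age only, which is not a test of a difference between the ages. Some of them kept their sign at both ages, as Epsti1 (-0.41 in aged mice), and others did not, as Usp18 (0.49 in aged mice). In aged mice the sign turned in at least 1 alternative for 15 of the 53, and 0 of these were called. Ifi27l2a, Ifit1, Isg15, Oas2, Rsad2, Ifit3 and Cmpk2 kept their calls under all 13 alternatives. Without aged spleen replicate 1 or 2, 7 members were higher, and without aged muscle replicate 1, 8 were. Those of Helz2, Isg20, Oasl2, Rtp4, Trim30a and Zbp1 ended without either aged spleen library, those of the same genes except Helz2 without aged muscle replicate 1, and that of Oasl2 also without replicate 2. The call of Slfn2 ended without aged spleen replicate 1.

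**Figure D4:**
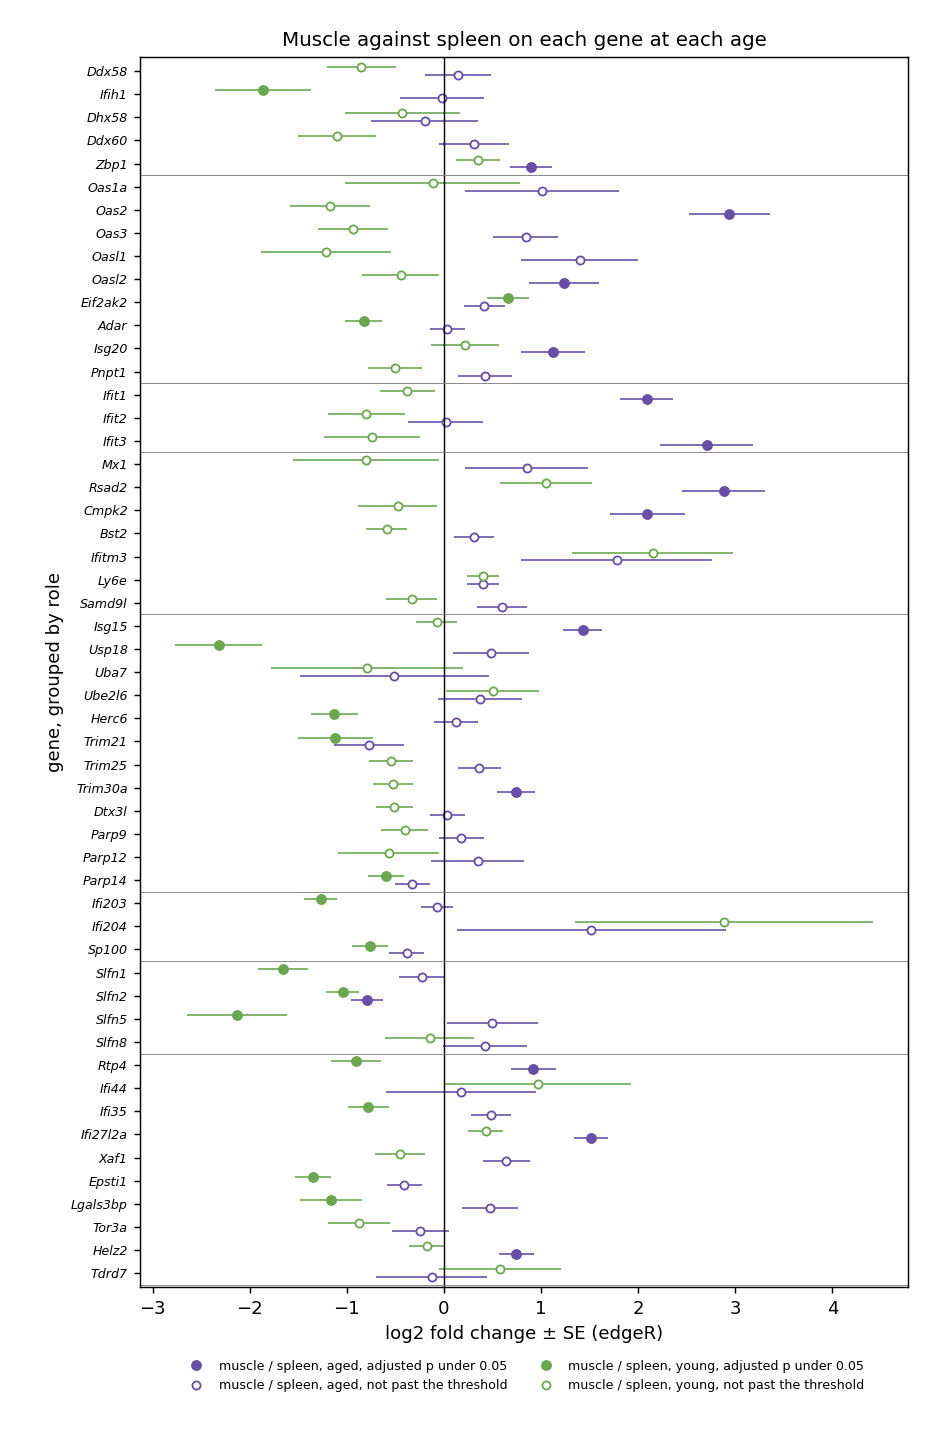
Log2 fold change ± SE (horizontal) of muscle over spleen in young (green) and aged mice (purple) for each of the 53 genes (vertical, grouped by role); filled points have an edgeR adjusted p under 0.05. Of the filled points, 15 of 16 lie below 0 in young mice and 13 of 14 above 0 in aged mice.

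The rest of the pathway was read from 7 further lists. Of the ligands, 16 type I interferon genes were in the table, and 3 of them had any count, with at most 3 counts in a library and 10 over all 8, too few for any of them to be tested. Ifng, which encodes the type II interferon, was at 0.805 and 4 CPM in young and 4.84 and 8.46 in aged muscle (1.49 ± 1.08, adjusted p = 0.54). Of 7 receptor and Janus kinase genes, 0 were called for age in muscle by edgeR or DESeq2, and 0 had an unadjusted p under 0.05. Ifnar1 was at 33 and 37 CPM in young and 51.4 and 45.2 in aged muscle (0.47 ± 0.26, adjusted p = 0.42). Ifnar2 was at 23.3 and 22 and 19.7 and 11.8 CPM (-0.51 ± 0.33, adjusted p = 0.48), and in aged mice it was lower in muscle than in spleen by -1.59 ± 0.32 (0.0032), a call that ended without aged spleen replicate 1.

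Among the transcription factors, 3 of 7 rose with age in muscle: Irf7, Stat2 and Irf9. Stat2 and Irf9 encode parts of the complex that binds the response element, and Irf7 amplifies the response. Irf7 was at 53.9 and 64.4 CPM in young and 231 and 176 in aged muscle, with 95.3 and 80.6 in young and 102 and 96.4 in aged spleen. Both aged muscle libraries were the highest of the 8, and the rise was 1.78 ± 0.20 (adjusted p = 0.00022). Stat2 rose from 33 and 37 to 65.2 and 71.9 CPM (0.97 ± 0.23, adjusted p = 0.042) and Irf9 from 87.3 and 111 to 184 and 157 (0.78 ± 0.18, adjusted p = 0.041). Irf7 kept its call under all 13 alternatives, while the calls of Stat2 and Irf9 each held in 5 of 13 and ended without any 1 library other than young muscle replicate 2. In spleen Irf1 rose with age (0.51, adjusted p = 0.048), a call that ended without any 1 spleen library. Of the 7, Irf7 alone passed the test of the difference between tissues (1.61 ± 0.28, adjusted p = 0.0052), a call lost when aged spleen replicate 2 or young spleen replicate 1 was left out.

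**Figure D5:**
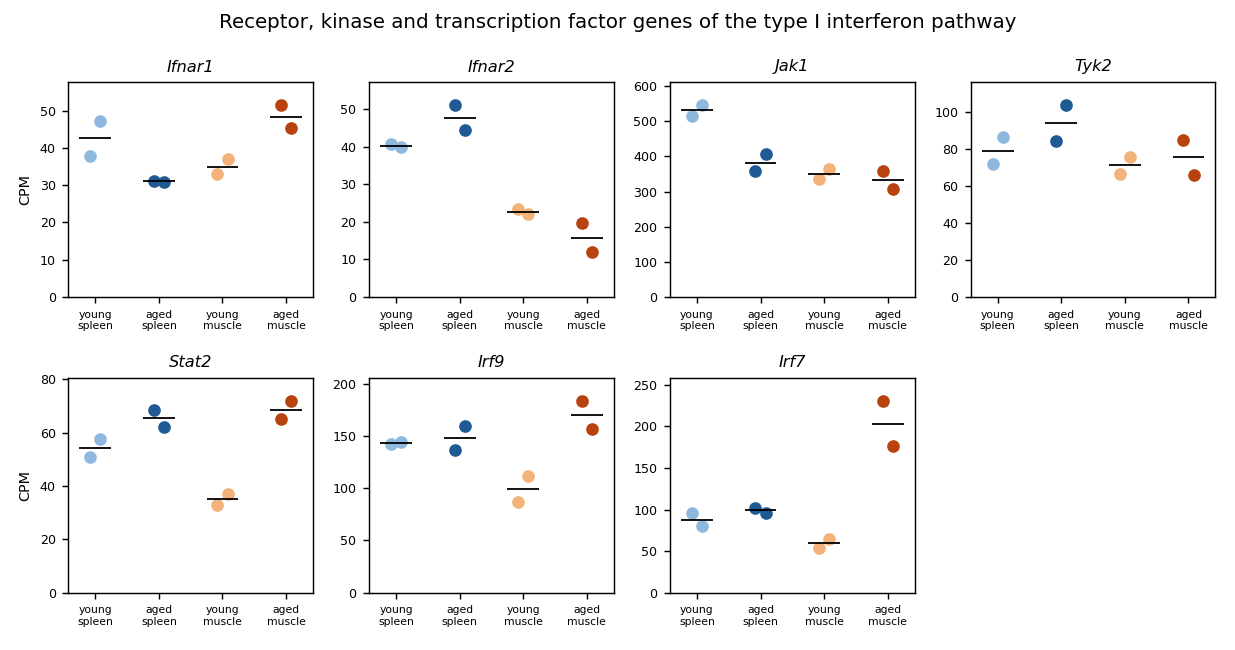
CPM (vertical, from 0) of the receptor genes Ifnar1 and Ifnar2, the kinase genes Jak1 and Tyk2 and the transcription factor genes Stat2, Irf9 and Irf7, by group (horizontal); each point is 1 library and each line the mean of 2. The 3 transcription factor genes are lowest in young muscle. Both aged muscle libraries lie above both young ones for Ifnar1 and under them for Ifnar2. No receptor or kinase gene passed the threshold for age in muscle.

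Of 9 tested adaptors and kinases of nucleic acid sensing and 9 feedback inhibitors, 0 were called for age in muscle by edgeR or DESeq2, and 1 in each list was lower at an unadjusted p under 0.05. Ticam1, which encodes TRIF, the adaptor of TLR3, rose with age in spleen by 1.51 ± 0.25 (adjusted p = 0.0027), and its age effect differed between the tissues by -2.06 ± 0.35 (0.004), with the opposite sign to that of the antiviral genes called. The difference held under all 12 alternatives, while the call in spleen ended when aged spleen replicate 1 or young spleen replicate 2 was left out. Samhd1, a nucleotide hydrolase that restricts retroviruses, fell in spleen by 0.62 on the log2 scale (adjusted p = 0.017). Of 11 tested interferon-inducible GTPases, which attack the vacuoles of intracellular pathogens and answer to interferon gamma as well, 5 rose with age in muscle. Iigp1 was at 10.9 and 17.5 CPM in young and 91.6 and 62.2 in aged muscle, with 63.1 and 49.6 in young and 107 and 115 in aged spleen, a rise of 2.46 ± 0.29 in muscle (adjusted p = 0.00029), and it also rose in spleen (0.98, adjusted p = 0.041). Irgm1 (1.37), Gbp8 (1.05), Gbp6 (0.99) and Irgm2 (0.82) were the others. The call of Iigp1 in muscle held under all 13 alternatives, those of Irgm1 and Gbp8 ended only with the muscle libraries fitted alone, and those of Irgm2 and Gbp6 held in 9 and 5 of 13. The call of Irgm2 also ended without young muscle replicate 1 or either aged spleen library, and that of Gbp6 without any 1 library other than young muscle replicate 2. The calls of Iigp1 and Samhd1 in spleen ended without any 1 spleen library. Of 23 further tested antiviral and paralogous genes, 1 rose, Gm14446 (1.72, adjusted p = 0.046), an Ifit-family gene, and 11 were higher at an unadjusted p under 0.05. Znfx1, an RNA helicase gene of that list, fell with age in spleen by 0.87 on the log2 scale (adjusted p = 0.048). The calls of Gm14446 and Znfx1 held in 5 and 6 of 13 alternatives, and that of Znfx1 not by DESeq2.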

How the data were processed

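RNA-seq of sorted Tregs gave 8 libraries in 4 groups of 2, assigned by title, source and age in the labels. The table that the authors deposited holds read counts, whole numbers per gene symbol without normalization. TopHat, TopHat2, Picard, SAMtools 0.1.19 and HTSeq and the build mm10 are named in the submitters' processing notes, and the sources used here do not give the annotation or the strand setting. All 8 columns were used, and every table line named a gene.

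Genes were filtered with filterByExpr by group (14772 kept) and scaled by TMM. In edgeR 4.0.16 (limma 3.58.1, R 4.3.3) all 8 libraries entered a single robust quasi-likelihood fit with 1 term for each group, with 4 residual degrees of freedom and a biological coefficient of variation of 0.288. Tests were two-sided, with Benjamini-Hochberg adjustment over all 14772 genes at 0.05. Every adjusted p is from this test unless DESeq2 (1.42.0) is named. Standard errors were obtained as log2 fold change over the root of F. CPM are counts divided by the TMM-scaled total, times 1000000, not divided by gene length, so levels of different genes are not compared. A prior count of 2 was added before taking logs of CPM. The replicates of every group differed by more than sampling noise, and those of muscle more than those of spleen. Chi-square per gene was 3.83 in young and 4.29 in aged spleen, and 8.61 in young and 8.36 in aged muscle. Floors of 3 counts cover counting error only.

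The members and lists were chosen with earlier results of these data known. By the naming rule, every member could be named in order of role, with values in every library for up to 4 members of smallest p for age in muscle per role, up to 2 per role past the threshold in another comparison, and members called against the direction of most. Pathway genes are Ifnar1, Ifnar2, Stat2, Irf9, Irf7 and up to 3 of smallest p per list. Tyk2, Irgm2 and Gbp6 in muscle, and the marker genes given with values, go beyond it and were named after their values were seen. A gene of the transcription factor list is not reported here. Positions are from GENCODE M21 on GRCm38, counted from 1, and promoter windows from RefSeq. Alternatives were library-size scaling, no filter, a replicate block, only the groups compared, DESeq2 and each library left out. The fits were tested on simulated data in which each gene had the same spread in every group. Such data cannot check a spread that differs between muscle and spleen.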

Additional observations from a re-analysis of the deposited data

Results flagged for a closer look

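A difference of the age effects between the tissues, muscle minus spleen, passed edgeR's quasi-likelihood test at an adjusted p under 0.05 for 18 genes of the antiviral group and of the pathway lists, and each is given on the log2 scale. Among the antiviral genes it was 4.11 for Oas2, 3.44 for Ifit3, 2.81 for Usp18, 2.57 for Cmpk2, 2.46 for Ifit1, 1.83 for Rtp4, 1.51 for Isg15, 1.43 for Slfn1, 1.27 for Trim30a, 1.26 for Ifi35, 1.19 for Ifi203 and 1.09 for Ifi27l2a. Among the other pathway genes it was 1.61 for Irf7, 1.35 for Znfx1, 1.31 for Gbp6, 1.29 for Gbp8 and 1.09 for Irgm2. Ticam1 had the only negative value among the 18, at -2.06. The difference of Znfx1 passed in 3 of 12 alternatives and in no fit that left out 1 library, and that of Gbp6 in 4 of 12. Those of Gbp8 and Irgm2 passed in 8 of 12 and ended without any 1 spleen library, except that Irgm2 passed without young spleen replicate 2. Irgm2 also lost its call without young muscle replicate 1.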

How the results depend on the processing

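With 2 libraries a group and 4 residual degrees of freedom, many calls for age in muscle rested on a spread shared by all groups. Replicates differed more in muscle than in spleen, so the shared spread may be too small for muscle. Fitting only the libraries of the 2 groups compared ended 17 of 22 calls there, 4 of 16 for tissue in young mice, 0 of 14 for tissue in aged mice and 0 of 1 for age in spleen. In those fits 5 members rose in muscle, where 0.223% of all genes rose. In spleen 2 rose and 3 fell, where 6.28% and 6.78% of all genes did. In young mice 0 were higher in muscle, where 9.29% of all genes were. Without the filter, 1 fell in muscle, where 1.32% of all genes fell. In spleen 2 rose and 2 fell, where 2.52% and 1.62% of all genes did. Of the members, 2 were higher in young muscle than young spleen, against 8.37% of all genes. That last count of members was 3 with library-size scaling and 3 by DESeq2, against 12.9% of all genes in each. Library-size scaling moved the median log2 fold change of all genes to 0.15 for age in muscle, 0.21 for age in spleen and 0.18 for tissue in young mice. With the replicate block, the replicate number as a term, 2 were higher in young muscle, against 12.7% of all genes. Uba7 then had 0.28 for age in muscle. No other count of members called moved by over 1.5 times with the block, and 24 rose in muscle. Over all genes, the block moved the calls for age in muscle from 168 to 263 higher and from 130 to 216 lower. Across alternatives these ranged from 33 to 553 and from 17 to 425, and for age in spleen from 74 to 928 (307 as reported) and from 60 to 1002 (320). The labels do not say that the numbers pair the libraries. Same-numbered libraries deviated together with correlations of -0.065 to 0.256 over all genes tested. Over the members these were -0.132 to 0.343, the highest for young spleen with young muscle.

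Leaving out 1 library at a time, 9 to 25 members rose and 0 to 1 fell with age in muscle, 0 to 1 rose and 0 to 2 fell in spleen, and 2 to 15 had a higher age effect in muscle. In young mice 0 to 3 were higher and 8 to 16 lower in muscle, and in aged mice 7 to 14 higher and 0 to 3 lower. Calls over all genes moved between these fits as well, so the counts of members are not set against each other. Where 1 library of a group remained, it was assumed to vary like the others. The causes of these changes were not tested. The sign of values near 0 turned for age in muscle in Ifit2 (-0.054 to 0.91), Uba7 (-0.92 to 2.33, also 0.072 with library-size scaling), Ifi204 (-1.36 to 1.79) and Sp100 (-0.17 to 0.40), and in spleen, among the genes followed there by name, in Isg15 (-0.062 to 0.14), Rsad2 (-0.19 to 0.96) and Irf9 (-0.067 to 0.15), none of them called in that comparison. Over all 53 members the sign turned in at least 1 alternative for 4 in muscle and 12 in spleen, and 0 of these were called. Genes under about 10 CPM, such as Uba7, Ifi204 and Ifi44, are limited by depth.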
